A study of Mus musculus with 18 samples.

Results

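Gene levels in the liver and in the spleen of newborn control mice were compared, using 2 libraries of each organ, 4 of the 18 libraries of the series. All 4 came from female mice at postnatal day 1 that carried an Xist deletion on a single X chromosome. Xist is the noncoding RNA that coats and silences an X chromosome in female cells. The table headers call these columns WT, but by the labels the mice were heterozygous, and they are described as such here. Mutant females with the homozygous deletion, again 2 libraries of each organ at postnatal day 1, served to repeat the comparison. The series design calls the libraries of an organ biological replicates. The labels name no Cre or transgene and do not say whether organs were perfused or whether liver and spleen came from the same pup. Each library was scaled to a sum of 1000000 reads in genes, and a level below is in reads per 1000000 reads (CPM). Of 46078 gene identifiers, 16991 named genes had a mean level of at least 1 in either organ and were tested.

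The newborn liver is an organ in transition. In the fetus it is the main site of red cell and granulocyte formation, and around birth this work moves to the bone marrow, while in mice the spleen makes blood cells as well. Liver tissue therefore holds hepatocytes, which secrete the plasma proteins, and blood precursors in between. The newborn spleen holds blood precursors in a stroma that descends from a mesenchyme specified by the transcription factor Tlx1, and it is starting to receive lymphocytes. In such bulk tissue, fewer cells of a type and less RNA per cell cannot be told apart.

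Promoters of 3 genes are shown because each stands for a group described below: Alb for the hepatocyte, Hbb-bs for the shared red cell lineage, and Cpa3 for the mast cells of the spleen. The windows are RefSeq sequences of build GRCm38.p6, from 250 bases before to 50 bases after the annotated start, read on the gene's strand. Alb lies at chr5:90460620-90460919 (+), Hbb-bs at chr7:103827879-103828178 (-) and Cpa3 at chr3:20242132-20242431 (-). Capitals mark CAAAGTC, the core bound by HNF4 factors, in Alb, AGATAA, bound by GATA factors, in Hbb-bs and Cpa3, and CACACCC, the box bound by Klf1, in Hbb-bs.
Alb: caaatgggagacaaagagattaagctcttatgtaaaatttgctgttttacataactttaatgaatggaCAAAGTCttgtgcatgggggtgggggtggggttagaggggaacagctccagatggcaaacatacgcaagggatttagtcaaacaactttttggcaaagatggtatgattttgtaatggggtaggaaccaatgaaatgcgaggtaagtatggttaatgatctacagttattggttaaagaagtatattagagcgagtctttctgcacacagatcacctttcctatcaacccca
Hbb-bs: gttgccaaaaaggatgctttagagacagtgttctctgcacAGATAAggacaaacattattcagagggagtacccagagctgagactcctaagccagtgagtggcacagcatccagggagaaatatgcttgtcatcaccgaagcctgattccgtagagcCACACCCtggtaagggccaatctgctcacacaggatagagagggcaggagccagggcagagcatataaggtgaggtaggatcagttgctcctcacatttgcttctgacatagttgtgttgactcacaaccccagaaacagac
Cpa3: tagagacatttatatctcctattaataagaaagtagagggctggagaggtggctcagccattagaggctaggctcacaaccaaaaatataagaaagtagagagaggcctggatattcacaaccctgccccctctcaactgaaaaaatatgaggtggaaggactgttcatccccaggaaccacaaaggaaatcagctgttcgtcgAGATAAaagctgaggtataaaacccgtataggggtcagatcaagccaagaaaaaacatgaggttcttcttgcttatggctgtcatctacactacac
In Alb the HNF4 letters began 182 bases before the start, and in Cpa3 the GATA letters began 46 bases before it. Each motif was searched on both strands of the windows of 27025 genes. The HNF4 core was found in 4 of the 20 plasma protein genes that had a window, or 20%, in none of 24 windows of clotting and complement genes, and in 4.36% of all windows. The GATA letters were in 6 of 12 windows of mast cell, basophil and eosinophil genes (50.0%), in 8 of 32 windows of globin, haem and red cell membrane genes (25%), in 4 of the 20 plasma protein windows (20%) and in 11.4% of all windows. The CACCC box was in 3 of the 32 red cell windows (9.38%), beside 7.85% of all windows. The letters ATGCAAA, part of the octamer bound by POU factors of B cells, were in 1 of 16 B cell windows (6.25%), beside 4.59% of all windows. The core bound by PU.1, a factor of myeloid and B cells, is GAGGAA. It was in 13 of 20 windows of neutrophil granule genes (65.0%), in 8 of 16 windows of B cell genes (50.0%) and in 28.3% of all windows. A match is a description of the letters and not a measured binding site.

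The 4 control libraries held 15770903 to 24499377 reads in genes, with 23623 to 28889 genes having a read. In the text below, libraries 1 and 2 of an organ are given in that order. The spread between replicates exceeded counting error: chi-square over its degrees of freedom was 164 for the liver pair and 116 for the spleen pair. The 50 genes with the most reads took 40.2% and 35% of liver reads but 17.8% and 14.9% of spleen reads. On this scale the median gene stood lower in liver, with a log2 difference of -0.85. The organ tables were normalized separately by the authors, and dividing each column by its own sum removed that step but not this shift. A second scaling, TMM, which centres most genes, brought the median to -0.08. A gene is therefore called higher in an organ below only where limma's test on log2(level + 0.5) had an adjusted p under 0.05 with both scalings, a rule chosen after this shift was seen.

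By that rule 1398 genes were higher in liver (8.23% of the genes tested) and 746 were higher in spleen (4.39%). With column sums alone the counts were 1398 and 5560 (32.7%), and with TMM alone 2088 (12.5% of 16716 tested) and 746 (4.46%), so the split between the organs depends on the scaling. The calls leaned on both liver libraries, as refits of the column-sum test showed. Of the 1398 liver calls, 618 remained without liver library 1 and 489 without liver library 2, and 1386 and 1375 kept their sign. Of the 746 spleen calls, 48 and 44 remained without liver library 1 or 2, and all 746 kept their sign in both cases. Leaving out a spleen library kept 1243 and 1266 of the liver calls, and 746 and 745 of the spleen calls. In these fits the lone library was assumed to vary like the other group. Where a group count is given below as remaining without either liver library, each was left out in turn and the count was the same for both.

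**Figure D1:**
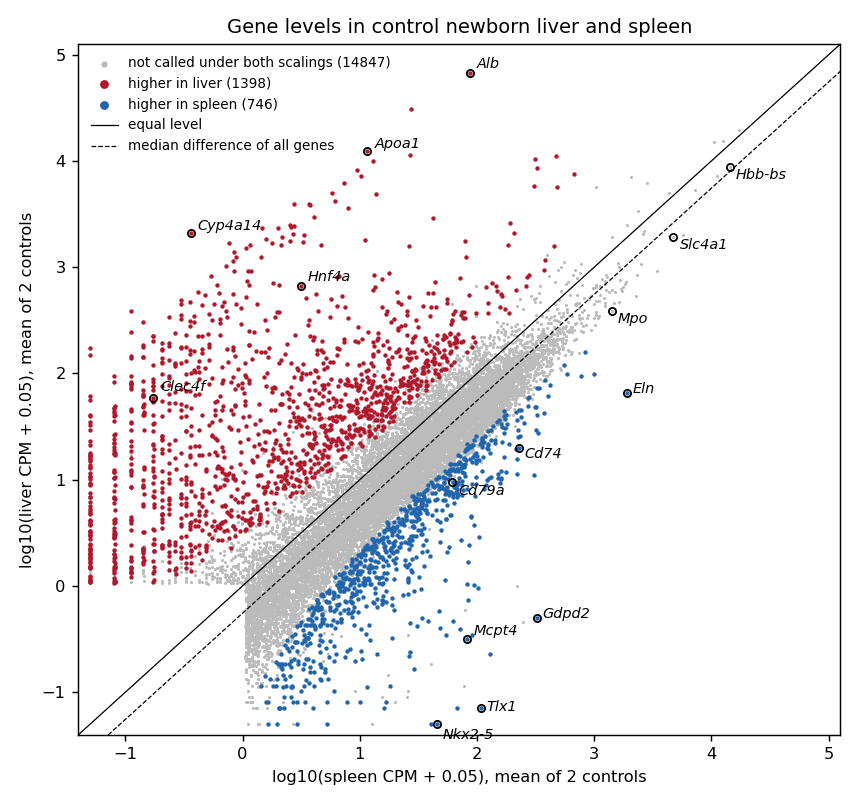
Mean level of each tested gene in spleen (horizontal axis) and liver (vertical axis), on log10 axes of CPM, over 2 control libraries each. Red points are the 1398 genes called higher in liver and blue points the 746 called higher in spleen. The dashed line runs parallel to equality at the median difference of all genes. Alb lies near the top and Tlx1 near the bottom, at similar positions on the spleen axis.

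Hepatocyte genes led the liver side. Albumin, the main plasma protein, had Alb levels of 83877 and 50127 in the liver libraries and 171 and 3.58 in the spleen libraries, a log2 difference of 11.26 (SE 1.66, limma adjusted p = 0.0102). Both liver libraries lay far above both spleen libraries, and spleen library 1 held more Alb than spleen library 2. Afp, the albumin of the fetus, stood at 14964 and 7899 in liver and at 53.2 and 0.690 in spleen, a log2 difference of 10.41 (SE 1.67, limma adjusted p = 0.0132). Ahsg, the fetal glycoprotein fetuin-A, was at 26216 and 35221 in liver and 52.0 and 2.70 in spleen, again with spleen library 1 above spleen library 2. All 27 tested plasma protein genes were called higher in liver, with a median log2 difference of 9.70 beside -0.85 for all genes, and 20 and 19 remained without liver library 1 or 2. Alb, Afp and Ahsg were among those lost. Without liver library 1 or 2 limma's adjusted p was 0.118 in both cases for Alb, 0.128 and 0.131 for Afp, and 0.0760 and 0.0777 for Ahsg. With edgeR on the reads recovered from the tables, Alb missed the threshold as well (adjusted p = 0.0708). Haptoglobin, which binds free haemoglobin, was closer between the organs, with Hp levels of 1547 and 3690 in liver and 112 and 270 in spleen.

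Secreted clotting and lipid proteins followed. Of 31 genes for clotting factors and complement, 30 were called higher in liver (22 and 20 without liver library 1 or 2), with a median of 7.66. Fgb, the fibrinogen beta chain, had levels of 8772 and 7544 in liver and 17.9 and 1.00 in spleen (log2 difference 10.60, SE 1.10, limma adjusted p = 0.00307, or 0.0718 and 0.0673 without liver library 1 or 2). C3, the central complement protein, had a smaller ratio, at 11355 and 10880 against 272 and 665. The exception was Pros1, the anticoagulant protein S, at 14.9 and 15.8 in liver and 12.6 and 21.8 in spleen. All 19 apolipoprotein and lipid transport genes were called higher in liver (17 and 15 without liver library 1 or 2). Apoa1, the main protein of high-density lipoprotein, stood at 9416 and 15233 in liver and 19.0 and 4.08 in spleen. Apoe, which macrophages make as well, stood at 202 and 420 in spleen, below its liver levels of 7334 and 13485.

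Metabolic genes of the hepatocyte were on the same side. All 20 urea cycle and amino acid genes were called higher in liver (16 and 15 without liver library 1 or 2), among them Cps1, the first enzyme of the urea cycle, at 5552 and 6826 against 13.2 and 1.38. For gluconeogenesis and carbohydrate metabolism 9 of 12 were called, and all 9 remained without either liver library. Pck1, which commits carbon to glucose, was at 1392 and 2129 in liver and 3.51 and 1.44 in spleen. The 3 genes not called were Khk, the fructose kinase, Pklr, the pyruvate kinase that red cells share with liver, and Pygl, a glycogen phosphorylase also present in blood cells. Their log2 differences were 0.39, -1.41 and -0.13, and Pklr had its highest level, 468, in spleen library 1. Of 17 bile acid and drug genes 16 were called (14 and 13 without liver library 1 or 2), Cyp7b1 being the exception at 0.761 and 1.27 against 0.924 and 2.57. Slc10a1, the bile acid importer of hepatocytes, stood at 360 and 612 in liver, with 0.493 and 0 in spleen.

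Fat burning showed a smaller median difference. Of 19 genes for fatty acid oxidation and ketone bodies, 17 were called higher in liver with a median of 2.23, and 6 remained without either liver library. The enzymes of mitochondrial beta-oxidation are used by most cells, and Hadha, a subunit of that pathway, had levels of 340 and 406 in liver and 199 and 173 in spleen. Cyp4a14, a fatty acid hydroxylase under the receptor Ppara, had levels of 973 and 3213 against 0.370 and 0.251, and liver library 2 held more than liver library 1. Hadhb and Fgf21 were not called, with log2 differences of 0.64 and 2.04.

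Transcription factors of the hepatocyte were called higher in liver in 18 of 19 cases (14 and 13 without liver library 1 or 2), with a median of 5.66. Hnf4a, which drives hepatocyte genes through the HNF4 core, stood at 502 and 817 in liver and 4.01 and 2.20 in spleen (log2 difference 7.52, SE 0.39, limma adjusted p = 0.000412). Foxa3, a factor that opens chromatin at liver genes, was at 44.3 and 90.9 in liver and 0.431 and 0.126 in spleen. Ppara, the receptor that senses fatty acids, was at 155 and 136 against 0.801 and 0.816. Cebpa, which granulocyte precursors use too, had spleen levels of 19.4 and 43.5 beside 200 and 343 in liver. Cebpb was the factor not called, at 53.7 and 88.5 in liver and 58.0 and 104 in spleen, where the libraries overlapped.

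**Figure D2:**
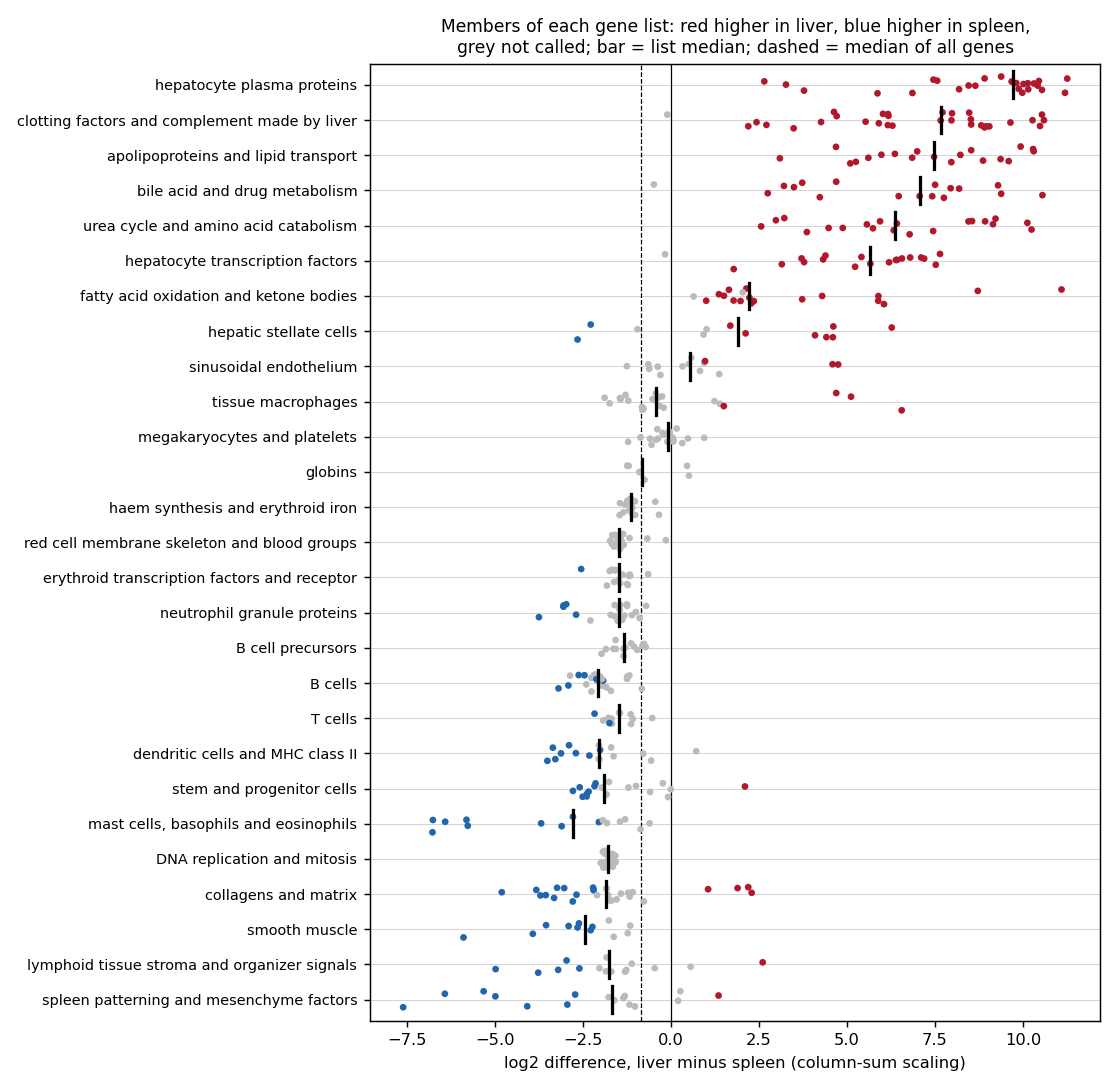
Log2 difference of liver minus spleen for the tested members of 27 gene lists, 1 point per gene, with the list median as a black bar and the median of all genes as a dashed line. Hepatocyte lists lie to the right in red. Among the grey points, globin genes lie on both sides of the dashed line. Haem and red cell membrane genes lie mostly to its left and megakaryocyte genes mostly to its right. Mast cell, smooth muscle and spleen patterning lists hold the blue genes farthest to the left.

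Non-hepatocyte cells of the liver had their own called genes. Of 12 stellate cell genes, which mark the vitamin A storing pericytes, 7 were called higher in liver and 2 higher in spleen, 9 in all (5 and 4 without liver library 1 or 2). Reln, the secreted protein reelin, stood at 345 and 319 in liver and 67.6 and 85.6 in spleen, and the lectin Colec10 at 64.7 and 59.8 against 0.555 and 0.126. The 2 in spleen were Des and Pdgfrb, which smooth muscle and other pericytes share. Of 14 genes of sinusoidal endothelium only 3 were called, all higher in liver, and 2 of them remained without either liver library. Lyve1, a hyaluronan receptor, had levels of 108 and 106 in liver and 4.93 and 3.20 in spleen. The scavenger receptor gene Stab2 stood at 225 and 224 in liver and 376 and 765 in spleen. It was not called (limma adjusted p = 0.0596, and 0.545 with TMM).

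Hormones and cytokines that bear on blood formation were divided between the organs. Of 14 tested, 6 were called higher in liver and 3 higher in spleen, and 3 of these 9 remained without either liver library. Thpo, the growth factor of megakaryocytes, stood at 6.47 and 13.3 in liver and 0.246 and 0.314 in spleen (log2 difference 3.65, SE 0.44, limma adjusted p = 0.00535). Igf2, a fetal growth factor, was at 5240 and 6305 in liver and 225 and 392 in spleen. On the spleen side, Kitl, the ligand of the Kit receptor, was at 66.1 and 90.1 against 11.9 and 11.1 in liver (log2 difference -2.69, SE 0.29, limma adjusted p = 0.00339, or 0.0690 and 0.0744 without liver library 1 or 2). Csf1, the macrophage growth factor, was at 143 and 220 in spleen and 33.4 and 32.9 in liver. Cxcl12, the chemokine that retains progenitors in their niche, was at 628 and 1075 in spleen and 242 and 327 in liver, and passed with column sums (limma adjusted p = 0.0354) but not with TMM. Hfe2, hemojuvelin, which raises hepcidin, was at 67.6 and 109 in liver and 0.555 and 0.188 in spleen. Hamp, the iron hormone hepcidin, was not called, at 0.507 and 33.7 in liver with 2 reads in the spleen libraries together.

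Red cell genes were high in both organs. The beta-globin gene Hbb-bs stood at 13381 and 4261 in liver and 17256 and 11531 in spleen, so that the libraries overlapped (log2 difference -0.90, 95% interval -3.28 to 1.48, limma adjusted p = 0.444). The alpha-globin gene Hba-a1 was at 2536 and 1373 against 4743 and 3899. Globin genes have near-identical copies (Hba-a1 with Hba-a2, Hbb-bs with Hbb-bt), so the split of reads between copies is uncertain. None of 6 globin genes, 16 genes of haem synthesis and erythroid iron, and 20 genes of the red cell membrane was called under both scalings, and the interval of Hbb-bs does not show that levels were alike. The list medians were -0.83, -1.15 and -1.49, beside -0.85 for all genes. Slc4a1, the anion exchanger of the red cell membrane, stood at 3071 and 810 in liver and 6738 and 2596 in spleen. Library 1 held more than library 2 in both organs for Slc4a1, for Alas2, the first enzyme of haem synthesis (772 and 328 in liver, 1299 and 938 in spleen), and for Hbb-bs.

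Among 16 erythroid transcription factors and receptors, 1 was called. Bcl11a, which represses embryonic and fetal globins and serves B cells too, was higher in spleen, at 191 and 158 against 40.0 and 21.1 in liver (log2 difference -2.55, SE 0.38, limma adjusted p = 0.0101). The call remained without liver library 1, but not without liver library 2 and not with edgeR on the recovered reads. Gata1, the factor of the GATA letters, was at 86.6 and 29.0 in liver and 261 and 90.1 in spleen, and Klf1, the factor of the CACCC box, at 159 and 42.1 against 507 and 125. In neither case was the gene called, with log2 differences of -1.60 and -1.62. Epor, the erythropoietin receptor, was not called either, at 71.6 and 30.0 in liver and 249 and 90.0 in spleen. Genes of DNA replication and mitosis moved with these: the summed level of 26 genes was 3719 and 1495 in liver and 12659 and 5542 in spleen, again higher in library 1 of each organ. Mki67, a marker of dividing cells, stood at 1343 and 515 against 4946 and 1981. None of the 26 was called under both scalings. With column sums alone 15 were higher in spleen, beside 32.7% of all genes tested. Their median log2 difference on that scale was -1.78, beside -0.85 for all genes. How far cell division contributes to the erythroid levels was not tested.

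Megakaryocyte and platelet genes had no called member. Their median log2 difference on the column-sum scale was -0.08, or 0.77 above that of all genes, with 20 genes tested. Itga2b, the platelet integrin alpha chain, stood at 78.5 and 142 in liver and 70.4 and 183 in spleen. The chemokine gene Pf4 was at 46.2 and 66.6 against 29.8 and 95.4, and Vwf, the adhesion protein von Willebrand factor, at 102 and 123 against 81.5 and 142. The direction for these 3 genes is not settled: the log2 difference for Itga2b was -0.10 with column sums and 0.72 with TMM, and Pf4 and Vwf were positive with both but changed sign when a library was left out. For all 3 the spleen libraries enclosed those of liver.

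**Figure D3:**
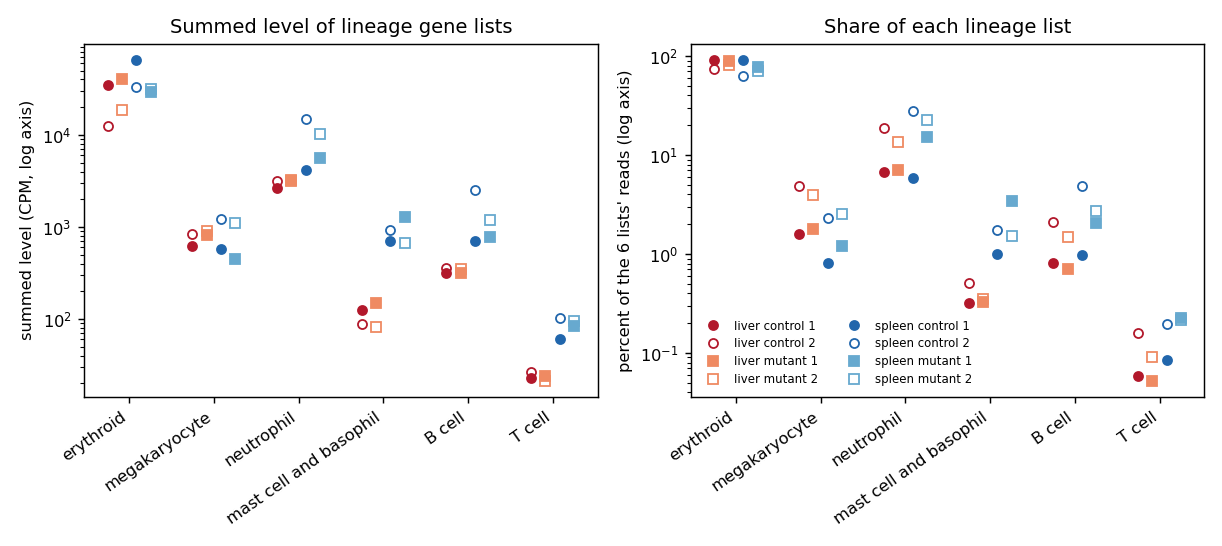
Summed level of 6 lists of blood lineage genes (left, CPM, log axis) and the share of each list in the reads of all 6 (right, percent, log axis), 1 symbol per library, filled for replicate 1 and open for replicate 2. Among the control libraries (circles), the share labelled mast cell and basophil is the one that separates liver from spleen, at 0.322% and 0.513% against 0.988% and 1.75%. That list holds eosinophil genes as well.

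Shares among blood genes do not depend on how many reads the hepatocyte genes took. The erythroid lists took 90.5% and 73.8% of the reads of 6 blood lineages in liver and 91.3% and 62.8% in spleen. Neutrophil genes took 6.75% and 18.6% in liver and 5.88% and 28.1% in spleen, and megakaryocyte genes 1.59% and 4.90% against 0.812% and 2.33%. B cell genes took 0.809% and 2.11% in liver and 0.978% and 4.85% in spleen. In each of these lineages the organs overlapped, and the libraries numbered 1 were closer to each other than to their own organ's library 2 for the erythroid, neutrophil and B cell shares. Mast cell, basophil and eosinophil genes took 0.322% and 0.513% in liver and 0.988% and 1.75% in spleen without overlap. In mutants they took 0.330% and 0.349% in liver and 3.45% and 1.53% in spleen. In control liver the eosinophil gene Prg2 alone stood at 74.6 and 45.6, beside list sums of 125 and 87.6. In control spleen it stood at 66.7 and 170, beside 704 and 919. The lack of overlap was not particular to this list: in mutants the organs were apart for 5 of the 6 lineages, all but the megakaryocyte. Neutrophil genes, for example, took 7.09% and 13.6% in mutant liver and 15.1% and 22.9% in mutant spleen.

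Mast cell proteases were called higher in spleen. Mcpt4, a chymase of connective tissue mast cells, stood at 90.4 and 75.2 in spleen and 0.127 and 0.408 in liver (log2 difference -6.78, SE 0.35, limma adjusted p = 0.000409). Cpa3, the mast cell carboxypeptidase whose promoter is printed above, was at 99.9 and 64.7 against 1.20 and 0.776 (log2 difference -5.78, SE 0.36, limma adjusted p = 0.000571). The chymase gene Cma1 was at 87.4 and 56.4 in spleen and 0.190 and 0.490 in liver. Tpsb2, a tryptase with a near-identical neighbour in Tpsab1, was at 61.8 and 119 against 0.190 and 0.408. Of 15 tested genes of mast cells, basophils and eosinophils, 9 were called higher in spleen and none in liver, and 6 and 5 remained without liver library 1 or 2. Hdc, the enzyme that makes histamine, stood at 114 and 125 in spleen and 8.43 and 9.14 in liver. Prg2, a granule protein of eosinophils, was not called, at 66.7 and 170 in spleen and 74.6 and 45.6 in liver.

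Progenitor genes included the receptor for the ligand Kitl. Kit stood at 221 and 251 in spleen and 38.7 and 38.4 in liver (log2 difference -2.60, SE 0.26, limma adjusted p = 0.00269), and mast cells carry this receptor as well as progenitors. Gata2, a factor of both stem cells and mast cells, was at 47.7 and 80.7 in spleen and 8.18 and 8.94 in liver. Myb, which progenitors need, was at 209 and 337 against 54.8 and 62.3, and was not called by edgeR on the recovered reads. In all, 8 of 18 stem and progenitor genes were called higher in spleen and 1 higher in liver, and none of these 9 calls remained without either liver library. The 1 in liver was Hlf, a factor of stem cells and of hepatocytes, at 41.6 and 47.3 against 7.09 and 13.9.

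Neutrophil granule genes were carried mainly by spleen library 2. Mpo, myeloperoxidase, was at 373 and 406 in liver and 640 and 2200 in spleen, and S100a9, a calcium-binding protein of neutrophils, at 449 and 470 against 756 and 2203. Both spleen libraries lay above both liver libraries, as for 67.3% of all genes tested. Neither gene was called (limma adjusted p = 0.0834 and 0.0815, or 0.415 and 0.469 with TMM). Of 22 genes 5 were called higher in spleen, none of which remained without either liver library. They were Mmp8, Mmp9, Retnlg, Csf3r and Cxcr2, named after their values were seen. Mmp8, a collagenase, stood at 149 and 225 in spleen and 20.5 and 22.6 in liver, and Csf3r, the receptor for granulocyte growth factor, at 137 and 314 against 20.2 and 29.8.

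B cell genes were low in liver and uneven between the spleen libraries. Cd79a, which carries the signal of the B cell receptor, was at 7.86 and 10.9 in liver and 21.0 and 102 in spleen, with a log2 difference of -2.26 (SE 0.73) that missed the threshold (limma adjusted p = 0.0528, and 0.149 with TMM). Other settings were divided. Cd79a passed with all 8 libraries in one fit (limma adjusted p = 0.0204), with the deposited values as they stand (limma adjusted p = 0.0238) and with DESeq2 (adjusted p = 0.0338). It failed with edgeR on the recovered reads (adjusted p = 0.141) and with column sums without the 50 highest genes (limma adjusted p = 0.116). Ighm, the heavy chain of immunoglobulin M, was at 101 and 114 against 212 and 834. Igkc, the constant part of the kappa light chain, was at 13 and 16.4 against 34.8 and 181, with spleen library 2 again the highest. All 24 B cell genes had both spleen libraries above both liver libraries, as had 67.3% of all genes tested. By the rule of both scalings 6 were called higher in spleen and none remained without either liver library, while 14 were higher with column sums alone. With column sums alone 32.7% of all genes tested were higher in spleen. Of 14 genes of B cell precursors none was called under both scalings. Pax5, the factor that commits cells to the B lineage, was at 18.1 and 20.1 in liver and 40.4 and 144 in spleen, called with column sums (limma adjusted p = 0.0456) but not with TMM. Rag1, which cuts the receptor genes, was at 11.3 and 15.3 in liver and 21.4 and 75.7 in spleen.

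T cell genes were scarce in both organs, and 13 of 22 passed the level filter. Cd3d, a chain of the T cell receptor complex, was at 1.01 and 0.776 in liver and 2.28 and 4.90 in spleen. Of these 13, 2 were called, both higher in spleen, and neither call remained without either liver library. For antigen presentation, 8 of 16 genes of dendritic cells and MHC class II were called higher in spleen and none in liver, though none remained without either liver library. Cd74, the chaperone of class II molecules, was at 139 and 314 in spleen and 21.7 and 18.2 in liver (log2 difference -3.36, SE 0.44, limma adjusted p = 0.00665). H2-Aa, a class II alpha chain, was at 35.2 and 64.7 against 6.09 and 4.12, and its partner H2-Ab1 at 39.0 and 63.1 against 8.18 and 4.69.

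Of 22 tissue macrophage genes 4 were called, all higher in liver. With column sums alone 4 others were higher in spleen, beside 32.7% of all genes tested. Both spleen libraries lay above both liver libraries for 11 of the 22, beside 67.3% of all genes tested. C1qb, a complement chain made by macrophages, stood at 140 and 136 in liver and 151 and 230 in spleen and was not called, with a log2 difference of -0.44 (95% interval -1.24 to 0.36) that was 0.38 with TMM. Clec4f, a lectin of Kupffer cells, the macrophages of the liver, was at 72.1 and 46.4 in liver and 0.185 and 0.0628 in spleen (log2 difference 6.55, SE 0.37, limma adjusted p = 0.000459). Vsig4, a complement receptor, was at 15.5 and 18.3 in liver with no read in either spleen library, which makes it at least 184-fold higher in liver by the floor of 3 reads over the pooled spleen libraries. That floor covers counting error only. The 4 called were these 2, Cd5l and Nr1h3. Of the 4, 2 remained without either liver library, and 3 without spleen library 1. Slc40a1, the iron exporter, was at 454 and 728 in spleen and 217 and 282 in liver. It was not called (limma adjusted p = 0.0502, and 0.570 with TMM).

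**Figure D4:**
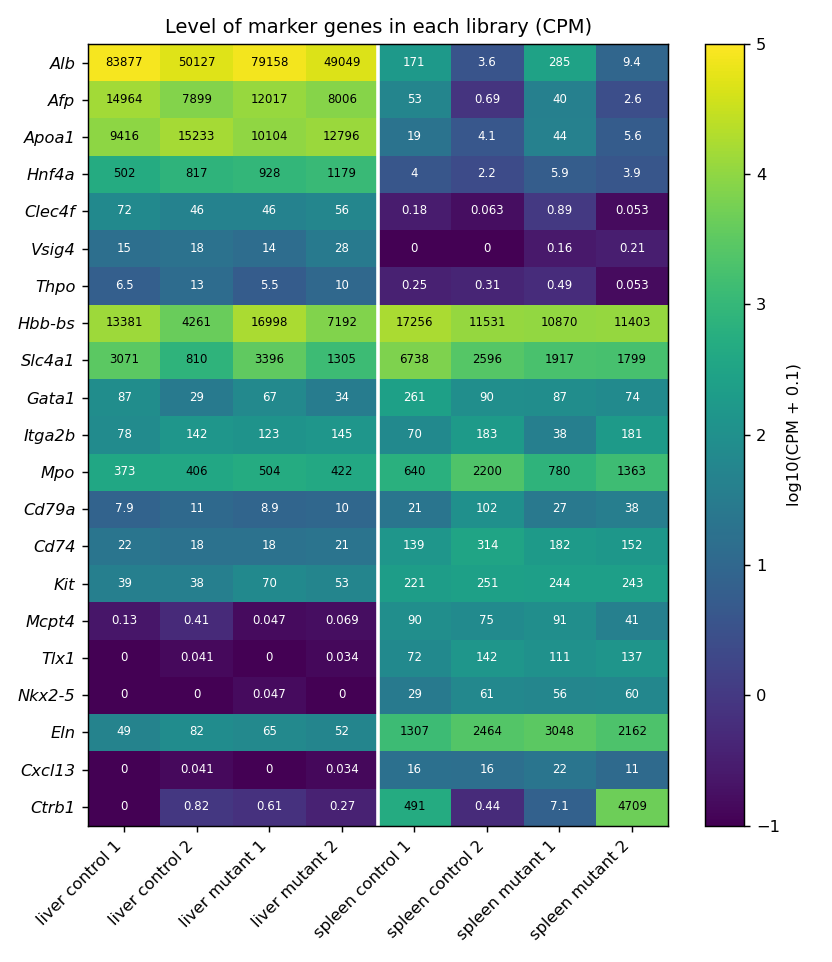
Level of 21 marker genes in the 8 liver and spleen libraries of controls and mutants, as CPM written in each cell and as a log10 colour scale. Hepatocyte and Kupffer cell genes are high on the left of the white line, mast cell and spleen stroma genes on its right, and red cell and megakaryocyte genes on both, while Ctrb1 is high in 2 spleen libraries.

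Factors of the spleen stroma were among the genes with the largest differences. Tlx1, the homeobox factor without which no spleen forms, stood at 72.2 and 142 in spleen with 1 read in the liver libraries together, a pooled ratio of 4301 with a counting interval of 772 to 169900. Nkx2-5, another homeobox gene of the spleen rudiment, was at 29.5 and 61.4 in spleen with no liver read, at least 608-fold higher by the floor of 3 reads over the pooled liver libraries. Nr5a1, the nuclear receptor of steroid-making organs and of the spleen's vessels, was at 28.8 and 51.5 in spleen, again with no liver read, or at least 538-fold higher. Of 16 patterning and mesenchyme factors 7 were called higher in spleen and 1 higher in liver, and of these 8 calls 4 and 3 remained without liver library 1 or 2. Nkx3-2, a repressor in the same mesenchyme, was at 12.5 and 23.9 in spleen with 2 liver reads. Tcf21, a factor of mesenchyme under the organ capsule, was at 55.0 and 166 in spleen and 10.2 and 14 in liver. Wt1, which the spleen rudiment needs and mesothelium also makes, was at 58.5 and 120 against 5.01 and 3.96. Foxf1, a factor of gut and liver mesenchyme, was the 1 in liver, at 6.85 and 7.18 against 1.97 and 3.01.

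By log2 difference among genes with a mean of at least 10 in spleen and no overlap, the leading spleen gene was Gdpd2, a membrane phosphodiesterase, at 197 and 447 against 0.697 and 0.204 (log2 difference -8.34, SE 0.50, limma adjusted p = 0.000500). Coch, an extracellular protein also known from the inner ear, was at 70.7 and 188 in spleen and 0.190 and 0.163 in liver. Agtr2, an angiotensin receptor of fetal mesenchyme, was at 29.6 and 104 in spleen with 1 liver read. Edn3, an endothelin ligand, was at 34.1 and 74.6 against 0.380 and 0.204. All 4 had spleen library 2 above spleen library 1, as had Tlx1 and Nkx2-5.

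Signals that attract and organize lymphocytes were on the spleen side as well. Cxcl13, the chemokine that draws B cells to follicles, was at 16.3 and 15.7 in spleen with 1 read in the liver libraries, a pooled ratio of 644 with a counting interval of 115 to 25470. Ccl21a, which draws T cells and dendritic cells and has close copies in the genome, was at 3.82 and 11.7 in spleen, also with 1 liver read. Madcam1, an adhesion molecule of the marginal sinus, was at 2.28 and 8.16 in spleen against 0.0634 and 0 in liver. Of 16 genes of lymphoid stroma and organizer signals 5 were called higher in spleen and 1, Tnfrsf11b, a decoy receptor, higher in liver. Of these 6 calls 1 remained without either liver library.

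Matrix and contractile genes formed the other large spleen group. Eln, elastin, was at 1307 and 2464 in spleen and 49.3 and 81.7 in liver (log2 difference -4.81, SE 0.46, limma adjusted p = 0.00221, but 0.0635 without liver library 1). Col1a2, a chain of type I collagen, was at 609 and 943 against 72.4 and 117, and Acta2, smooth muscle actin, at 168 and 152 against 7.55 and 13.3. Col3a1, the fibrillar collagen of soft tissue, was at 501 and 606 in spleen and 108 and 131 in liver. Its call was lost with edgeR on the recovered reads (adjusted p = 0.0633, log2 difference -1.29 against -2.20) and without liver library 1 or 2 (limma adjusted p = 0.115 and 0.113). Of 27 collagen and matrix genes 11 were called higher in spleen and 4 higher in liver, and 4 and 5 of these 15 remained without liver library 1 or 2. The 4 in liver were Dcn, Lum, Tnc and Postn, which code for proteoglycans (Dcn and Lum) and for matricellular proteins, and Dcn stood at 109 and 125 in liver and 22.6 and 28.0 in spleen. Of 12 smooth muscle genes 8 were called, all higher in spleen, and 2 remained without either liver library.

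Markers of neighbouring tissue were measured beside these. The summed level of 24 pancreas genes was 9 and 6 in liver and 1658 and 11.7 in spleen, and in mutant spleen it was 32.7 and 13667. Ctrb1, a digestive protease, stood at 491 in spleen library 1 and 0.439 in spleen library 2, and no pancreas gene was called. The 28 listed plasma protein genes summed to 460 and 297 in spleen, against 155520 and 131220 in liver. Their makeup differed between the spleen libraries: Hp alone stood at 112 and 270, and Alb at 171 and 3.58. All 10 mesothelium genes had both spleen libraries above both liver libraries, as had 67.3% of all genes tested, and 3 were called, Upk3b, Upk1b and Wt1, the first pair named after its values were seen, and none of the 3 remained without either liver library. The summed level of the 10 mesothelium genes was 38.9 and 40.2 in liver and 180 and 282 in spleen. It was thus highest in spleen library 2, while Ctrb1 was highest in spleen library 1. The part of neighbouring tissue in the spleen levels was not tested.

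Some groups served as a scale for these differences. The 22 cytosolic ribosomal protein genes had a median log2 difference of -0.80, beside -0.85 for all genes, and none was called. Genes encoded by the mitochondrial genome had a median of 1.52, and 4 of 9 were called higher in liver, none of them without either liver library, 1 without spleen library 1 and none without spleen library 2. Mitochondrial transcripts took 2.20% and 1.56% of liver reads and 0.726% and 0.649% of spleen reads. Of 8 cholangiocyte genes, which mark the bile ducts, 3 were called higher in liver, and 1 remained without either liver library. Of 12 monocyte genes 5 were called higher in spleen and 1 higher in liver, the latter being Fn1, fibronectin, which hepatocytes secrete, at 7242 and 7756 in liver and 671 and 660 in spleen. Of these 6 calls 1 remained without either liver library.

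The mutant libraries gave the same comparison in other animals, with the Xist deletion on both X chromosomes. Of 17428 genes tested there with column sums, 1317 were higher in liver (7.56%) and 7919 higher in spleen (45.4%). Under both scalings 1317 were higher in liver and 1772 higher in spleen (10.2%). Of the 1398 liver calls of the controls 1326 were tested in mutants, 1284 had the same sign and 1015 were called under both scalings. All 746 spleen calls had the same sign with column sums, 740 with TMM, and 655 were called under both scalings. Across 16584 genes the organ differences of controls and mutants had a Pearson correlation of 0.92, given as a description because genes are not independent replicates. Mcpt4 stood at 91.5 and 40.5 in mutant spleen and 0.0470 and 0.0686 in mutant liver, and Tlx1 at 111 and 137 against 0 and 0.0343. Tbx3, a factor of hepatoblasts that was higher in control liver (47.7 and 33.3 against 7.70 and 16.4), was at 4.04 and 23.4 in mutant liver and 47.7 and 22.3 in mutant spleen. Its difference in mutants was not called (limma adjusted p = 0.141), nor was a dependence on genotype over all 8 libraries (limma adjusted p = 0.948). Its control call was lost with all 8 libraries in one fit (limma adjusted p = 0.0787).

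**Figure D5:**
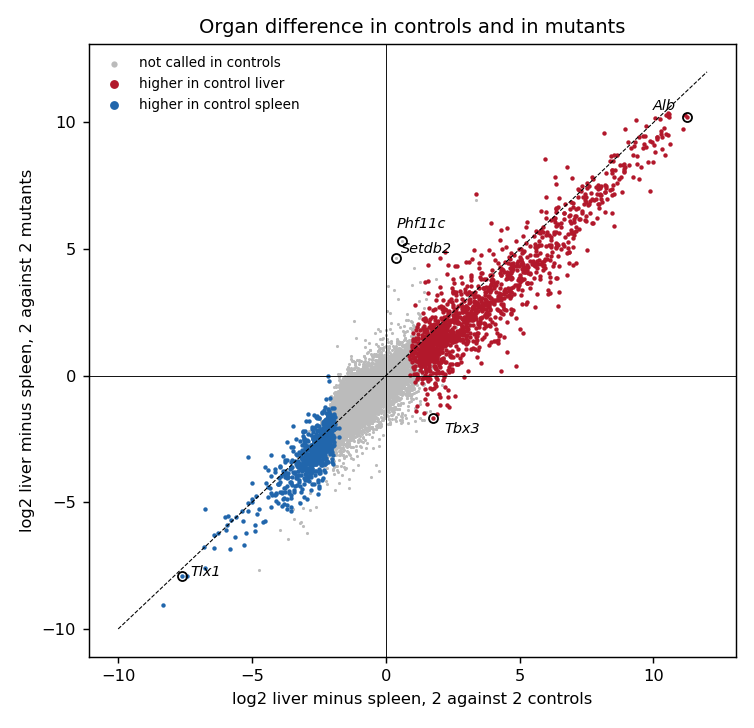
Log2 difference of liver minus spleen in controls (horizontal axis) and in mutants (vertical axis) for 16584 genes, each from 2 against 2 libraries, with the dashed line marking equal differences. Genes called in controls (red and blue) lie along the line, and Setdb2 and Phf11c lie above it.

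A test of whether the organ difference itself depended on genotype, fitted over all 8 libraries, called 2 genes (0.0118% of 16991). Both were neighbours on chromosome 14, Setdb2, a histone methyltransferase, and Phf11c, a member of a family of similar genes whose reads may be shared. At an unadjusted p under 0.05 there were 821 genes. DESeq2 on the recovered reads called 69, both of these among them. In control libraries Setdb2 stood at 36.1 and 24.2 in liver and 24.5 and 21.3 in spleen, so that the organs overlapped. Mutant liver held 585 and 497 and mutant spleen 23.8 and 18.5.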

How the data were processed

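The 4 libraries compared are total RNA from control liver and spleen. Per the labels' protocols, RNA was extracted with Trizol and depleted of ribosomal RNA with RiboMinus. Reads of 50 nt were mapped to GRCm38 and counted in genes with HTSeq 0.6.1, and values were normalized with edgeR, per the submitters' processing notes. Neither the aligner nor the annotation release is given in the sources used here. The same holds for the edgeR version and the strand setting, so antisense and overlapping genes are uncertain. The deposited values are the authors' normalized signal, scaled counts in 1 table per organ, each normalized on its own. Divided by the value of 1 read, 100% of the nonzero values came out whole (tolerance 0.05), which gave back the reads. Counts and limits cover counting error only.

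Each column was divided by its sum and multiplied by 1000000, and named genes with a mean of at least 1 in either organ were kept. The 849 identifiers without a name held at most 0.179% of reads. limma 3.58.1 (trend, R 4.3.3) tested log2(level + 0.5) over the 4 control libraries with Benjamini-Hochberg adjustment at 0.05. SE is that of limma's log2 difference. An exact permutation test of 2 against 2 cannot go below p = 0.333, so no single value was tested that way. Alternatives were TMM scaling, edgeR 4.0.16 and DESeq2 1.42.0 on recovered reads, other pseudocounts and filters, and leaving out each library. The script was tested on simulated counts of 16991 genes. The column-sum test recovered 0 of 100 genes changed 2-fold and 44 of 100 changed 4-fold, with 1 false call. A gene that was not called may therefore still differ 2-fold between the organs. Apart from the changed genes, the simulated organs had equal levels, without the shift of the median gene seen in these data. The rule of both scalings was not simulated. The number of false calls in the simulation thus does not carry over to the calls reported here. The genes named were Alb, Afp, Cd79a and Hbb-bs, up to 5 members of each list with the highest mean over the 4 libraries, called members against their list's direction, members of the factor and cytokine lists, and the 15 leading genes of each direction. Genes outside this rule are exceptions to a count, or were named after their values were seen. Some list members are not reported here by name. Lists and members were chosen with earlier results of these data known. Symbols and biotypes came from GENCODE mouse release 21, and promoter windows from RefSeq.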

Additional observations from a re-analysis of the deposited data

Results flagged for a closer look

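Setdb2 and Phf11c differed in their organ difference between mutants and controls, tested as an interaction over all 8 libraries. For Setdb2 the log2 difference of liver minus spleen was 4.29 larger in mutants (limma adjusted p = 0.0392), with both mutant liver libraries above all other libraries. For Phf11c it was 4.73 larger (limma adjusted p = 0.0392), with levels of 168 and 177 in mutant liver and 10 and 6.98 in control liver. Both were called by DESeq2 and with the replicate block as well. The control comparison of liver and spleen did not call either gene.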

How the results depend on the processing

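The counts of called genes depended on the scaling, the tool and both liver libraries, and the causes were not tested. Against 1398 genes higher in liver and 5560 higher in spleen, edgeR on recovered reads gave 2136 and 568, DESeq2 gave 2501 and 1005, and TMM scaling gave 746 on the spleen side, as did the requirement of both scalings, which was chosen after seeing the data. Column sums without the 50 highest genes gave 1174 on the spleen side, and no filter on level, which tests more genes, gave 2288. Leaving out a control library, in turn, gave 497 to 1401 genes higher in liver and 45 to 5566 higher in spleen, the low ends without liver library 2. In mutants TMM scaling gave 2724 and 1772 against 1317 and 7919, and leaving out a library gave 981 to 1358 and 4054 to 5904. Genes whose 95% interval of the difference lay within 2-fold numbered 856 with column sums, 2543 with TMM, 2086 without the 50 highest genes, 13673 with no filter, and 1613 with all 8 libraries in one fit. With a control library left out they numbered 0 to 294, and none met this criterion under both scalings. The interaction called 69 genes with DESeq2 in place of 2.

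Same-numbered control libraries of liver and spleen deviated together (correlation 0.424, and 0.268 in mutants), but with 2 pairs and no label tying a number to a pup or day, they share only a number. With the replicate block 1869 genes were higher in liver, 9311 were higher in spleen and 2311 lay within 2-fold, and the interaction gave 2 genes. None of the 76 named genes called under both scalings lost its call under the block, and 17 named genes that missed the column-sum test passed it with the block, Cd79a (limma adjusted p = 0.0030) and Alas2 (0.0169) among them.

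Of the 110 genes with values above, 76 were called under both scalings, and in the column-sum refits 47 of these lost the call without liver library 1 and 48 without liver library 2. With edgeR 4 lost it (Alb, Bcl11a, Col3a1 and Myb). Signs changed only in genes that were not called. With edgeR, DESeq2, TMM and sums without the 50 highest genes, the log2 difference became 0.73, 0.68, 0.65 and 0.27 for Cebpb, 0.71, 0.65, 0.70 and 0.32 for Pygl, 0.46, 0.40, 0.38 and 0.0054 for C1qb, 0.73, 0.68, 0.72 and 0.34 for Itga2b, and 0.77, 0.71, 0.69 and 0.33 for Pros1. With the first 3 of these it was 0.16, 0.10 and 0.10 for Cyp7b1, and with edgeR and DESeq2 0.22 and 0.15 for Hbb-bs. With a library left out it ranged from -0.59 to 0.25 for Cebpb, from -0.68 to 0.43 for Pygl, from -0.49 to 0.28 for Pros1, from -1.04 to 0.067 for Cyp7b1 and from -0.79 to 0.58 for Itga2b, each from without spleen 1 to without spleen 2. It ranged from -0.78 to 0.88 for Pf4 and from -0.35 to 0.45 for Vwf, with the same libraries at the ends. At these depths a gene with no read in an organ could have stood at up to 0.0745 in liver or 0.0933 in spleen, over the pooled libraries.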
